A study of Mus musculus with 12 samples.

Results

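Transcripts of 10 genes known for their expression in the oocyte were followed in 8-cell mouse embryos: the zona pellucida genes Zp2 and Zp3, the growth factor genes Gdf9 and Bmp15, the kinase gene Mos, and Zar1, Oosp1, Bcl2l10, Btg4 and Dppa3. They were taken by name from the 55401 genes listed in each library. All 10 were listed, and 8 had at least 1 count in every library, the exceptions being Mos and Zar1. A growing oocyte stores mRNA that it does not replace once it is fully grown. After fertilization most of this store is deadenylated and degraded, while the embryonic genome takes over transcription, and a few genes of the oocyte are transcribed again by the embryo. All libraries were of the 8-cell stage, so the values are levels at that stage and not rates of clearance.

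RNA-seq was performed on 12 libraries, each from a pool of 10 embryos at the 8-cell stage, to ask which genes depend on the nuclear receptor NR5A2 and the Krüppel-like factor KLF5. Zygotes from B6129F1 females of 3 to 5 weeks mated with B6CBAF1 males were injected at 8 to 9 h after fertilization with siRNA together with mRNA for H2B-EGFP at 150 ng/µl, also in control, and were cultured in KSOM medium. The groups were control (non-targeting siRNA at 15 µM, n = 2), Nr5a2 KD (siRNA against Nr5a2 at 5 µM, n = 3), Klf5 KD (siRNA against Klf5 at 10 µM, n = 3) and Nr5a2 Klf5 dKD (both siRNAs, concentrations not given in the labels, n = 4, below dKD). Zygotes are injected after the oocyte has laid down its mRNA, siRNA lowers a transcript without removing it, and a pool averages over its embryos. In such bulk libraries fewer embryos or cells with a transcript and less RNA per cell cannot be told apart, and the labels do not say whether pools came from separate matings, so p-values measure the spread between these libraries.

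The libraries held 6676683 to 12560926 counts on genes. Levels are given as CPM, counts scaled to a common library total, after TMM scaling, a factor per library that lines up the bulk of the genes, and 3 counts, taken as the floor of detection, corresponded to 0.269 to 0.454 CPM. The mitochondrial share, the percentage of gene counts on mitochondrially encoded genes, was 12.9 and 13.2% for the control pair and 4.41 to 12.8% for the 10 knockdown libraries. Nr5a2 was at 210 and 225 CPM in control and at 24.1 to 38.8 CPM in the 7 libraries with its siRNA. Klf5 was at 444 and 466 CPM in control and at 39.9 to 144 CPM in the 7 libraries with its siRNA, and also at 109 to 158 CPM in Nr5a2 KD. Of 8 markers of the 8-cell embryo, 7 had a count in every library, the exception being Cdx2, a trophectoderm gene. Of 12 markers of cumulus and granulosa cells, which surround the oocyte, 3 (Ptx3, Inhba, Lhcgr) were at 0 in every library, 1 (Foxl2, at 0.236 to 1.92 CPM) had a count in every library, and the highest value of any was 2.02 CPM (Star), with the list summing to 0.707 to 3.29 CPM.

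Dppa3 stood far above the other oocyte genes. To compare genes, CPM was divided by the exon length in kb. By the median over the 12 libraries the order was Dppa3 (22370 CPM per kb), Zp3 (28.4), Oosp1 (21.6), Gdf9 (3.06), Btg4 (2.82), Bcl2l10 (2.61), Zp2 (1.68), Bmp15 (0.977), Zar1 (0.114) and Mos (0). The ranges of Dppa3 and Zp3 did not overlap, nor did those of Oosp1 (6.19 to 62.6 CPM per kb) and Gdf9 (1.44 to 5.09 CPM per kb), whereas every other pair of neighbours in this order overlapped. In control, Dppa3 ranked 3 by level per length among 22795 genes with a count, Zp3 ranked 1687 and Oosp1 1906, and Bmp15 ranked 9294. Dppa3 made up 99.2 to 99.7% of the summed CPM of the 10 genes in each library and 1.38 to 2.82% of all gene counts, and the other 9 genes together summed to 59.9 to 130 CPM.

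**Figure D1:**
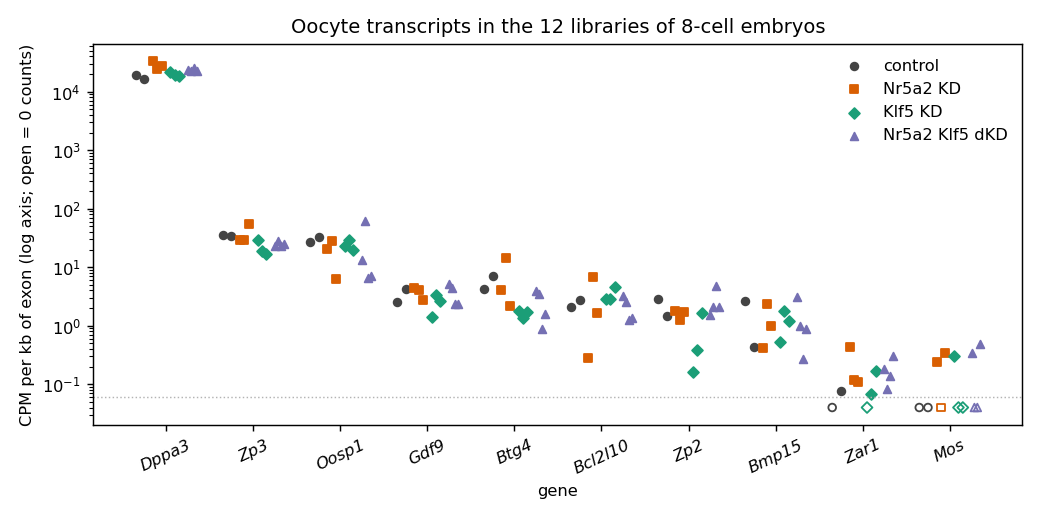
Level of each of the 10 oocyte genes in each library, in CPM per kb of exon on a log axis, with 1 point per library coloured by group and open symbols for libraries with 0 counts. Dppa3 lies at 16150 to 33030 CPM per kb, Zp3 and Oosp1 follow, and Zar1 and Mos lie near the floor of detection.

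RefSeq promoters, 250 bases before to 50 bases after a gene's start in GRCm38.p6, matched 5 of the 10 genes (Zp3, Bmp15, Zar1, Oosp1 and Btg4), while Zp2, Gdf9, Mos, Bcl2l10 and Dppa3 were not matched. Those of Zp3, Oosp1 and Btg4 are shown because the levels of Zp3 and Btg4 in Klf5 KD and dKD did not overlap control and because Oosp1 and Btg4 had the called slopes described below, with each E-box (CANNTG, a palindrome bound by basic helix-loop-helix factors, among them the oocyte factor FIGLA) in capitals. The Zp3 window lies at chr5:135979855-135980154 on the plus strand, the Oosp1 window at chr19:11691002-11691301 on the minus strand and the Btg4 window at chr9:51115751-51116050 on the plus strand, 55100 bases downstream of the outermost exon over which Btg4 was counted.
Zp3: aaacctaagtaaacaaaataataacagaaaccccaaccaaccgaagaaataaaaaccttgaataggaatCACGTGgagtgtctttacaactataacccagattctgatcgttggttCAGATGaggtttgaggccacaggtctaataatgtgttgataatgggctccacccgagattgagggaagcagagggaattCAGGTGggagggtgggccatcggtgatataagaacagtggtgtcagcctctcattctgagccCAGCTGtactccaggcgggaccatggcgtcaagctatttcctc
Oosp1: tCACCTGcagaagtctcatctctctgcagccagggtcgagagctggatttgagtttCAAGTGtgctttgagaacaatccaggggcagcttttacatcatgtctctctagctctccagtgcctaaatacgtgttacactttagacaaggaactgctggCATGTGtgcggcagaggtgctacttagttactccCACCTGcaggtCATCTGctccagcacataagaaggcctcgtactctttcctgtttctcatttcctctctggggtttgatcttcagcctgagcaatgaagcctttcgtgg
Btg4: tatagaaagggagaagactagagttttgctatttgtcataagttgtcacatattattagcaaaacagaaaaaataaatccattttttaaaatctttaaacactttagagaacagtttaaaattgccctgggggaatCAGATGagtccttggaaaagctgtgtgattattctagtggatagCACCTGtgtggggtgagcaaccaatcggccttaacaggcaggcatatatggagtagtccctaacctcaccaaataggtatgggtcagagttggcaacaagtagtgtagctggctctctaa
The windows hold 4, 5 and 2 E-boxes, and 72.3% of all 32851 promoters of this length hold at least 1. AAGGTCA, a site that NR5A2 binds as a monomer, was not found on either strand of the 5 promoters, against 4.72% of all promoters. TAATTG, bound by the oocyte homeobox factor NOBOX, was not found there either, against 8% of all promoters. The NR5A2 motif in the paper's nucleosome assays has a different sequence and was not searched for. Whether the 5 promoters hold other forms of the NR5A2 site was not tested.

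Oocyte mRNAs are stored or translated through signals at their 3′ ends, where the cytoplasmic polyadenylation element (TTTTAT or TTTTAAT) acts together with the hexamer AATAAA or ATTAAA. In the last 100 bases of the longest protein-coding transcript of GENCODE M21, 3 of the 10 genes (Gdf9, Bcl2l10 and Btg4) held the element, against 16.6% of 21852 genes, and 9 held the hexamer, against 74.9%. The 30 bases that end with the hexamer are shown for both genes with the element and the hexamer and for Dppa3, the most abundant of the 10, with both signals in capitals. They lie in the last exon, at chr11:53437858-53437887 (plus strand) for Gdf9, chr9:75351588-75351617 (plus strand) for Bcl2l10 and chr6:122630230-122630259 (plus strand) for Dppa3, in GRCm38.
Gdf9: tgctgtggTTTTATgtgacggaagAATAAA
Bcl2l10: catTTTTAATaacttcaaattcttAATAAA
Dppa3: acgttctaatttccagaaatttgtAATAAA
The Dppa3 window holds no cytoplasmic polyadenylation element, and Gdf9, Btg4 and Bcl2l10, which hold it, were neighbours in the order of levels per length. Whether the element goes with the level was not tested.

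Dppa3, on chromosome 6 from 122626410 to 122630272, encodes a protein that shields the maternal genome from loss of DNA methylation in the zygote, and the gene is also transcribed by the embryo. It was at 17140 and 14410 CPM in control, 29460, 21450 and 24960 CPM in Nr5a2 KD, 19410, 16970 and 16730 CPM in Klf5 KD, and 20600, 20140, 22860 and 19760 CPM in dKD. Every library with Nr5a2 siRNA was above both control libraries and above every Klf5 KD library. The copy Dppa3-ps, a processed pseudogene on the X chromosome, held 108 to 237 counts per library, and Dppa3 held 764 to 1157 times as many. Reads that map to both were not measured here.

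The zona pellucida genes differed in level and in pattern. Zp3, on chromosome 5 from 135980099 to 135988624, encodes the zona protein long described as a sperm receptor. It was at 46.4 and 45.4 CPM in control, 38.7, 38.2 and 71.9 CPM in Nr5a2 KD, 38.6, 24.9 and 22.0 CPM in Klf5 KD, and 30.8, 36.9, 30.9 and 32.4 CPM in dKD. All Klf5 KD and dKD libraries were below both control libraries, and Nr5a2 KD replicate 3 was the highest of the 12. Zp2, on chromosome 7 from 120126772 to 120145291, encodes the zona protein that is cleaved after fertilization. It was at 7.72 and 4.02 CPM in control, 4.94, 3.44 and 4.64 CPM in Nr5a2 KD, 0.449, 1.06 and 4.54 CPM in Klf5 KD, and 4.16, 5.66, 13.2 and 5.77 CPM in dKD. Klf5 KD replicates 1 and 2 had 5 and 9 counts, the lowest of the 12, and dKD replicate 3 had 112, the highest.

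The growth factors of the oocyte, which act on the surrounding granulosa cells, were at low levels without a group that stood apart. Gdf9, on chromosome 11 from 53431023 to 53437904, was at 5.14 and 8.57 CPM in control, 8.82, 8.38 and 5.58 CPM in Nr5a2 KD, 2.92, 6.83 and 5.42 CPM in Klf5 KD, and 10.3, 9.05, 4.71 and 4.77 CPM in dKD. Bmp15, on the X chromosome from 6314107 to 6320721, was at 8.02 and 1.34 CPM in control, 1.29, 7.28 and 3.01 CPM in Nr5a2 KD, 1.62, 5.54 and 3.66 CPM in Klf5 KD, and 9.46, 2.97, 0.825 and 2.71 CPM in dKD. The control libraries of Bmp15, at 53 and 10 counts, spanned nearly the whole range of the other groups.

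Btg4 and Oosp1 varied most between libraries among the genes above 10 CPM in control. Btg4, on chromosome 9 from 51060901 to 51119875, encodes an adaptor that brings the CCR4-NOT deadenylase to maternal mRNA. It was at 10.7 and 17.8 CPM in control, 10.5, 36.7 and 5.64 CPM in Nr5a2 KD, 4.58, 3.42 and 4.40 CPM in Klf5 KD, and 10.2, 8.77, 2.24 and 4.01 CPM in dKD. All Klf5 KD and dKD libraries were below both control libraries, while Nr5a2 KD spanned them. Oosp1, on chromosome 19 from 11667460 to 11691150, encodes a secreted protein of the oocyte. It was at 25.7 and 31.7 CPM in control, 19.5, 26.9 and 6.01 CPM in Nr5a2 KD, 22.5, 27.8 and 19.3 CPM in Klf5 KD, and 12.7, 60.8, 6.36 and 6.83 CPM in dKD. The 3 lowest libraries, Nr5a2 KD replicate 3 and dKD replicates 3 and 4, held 48, 54 and 58 counts, and dKD replicate 2 held 430.

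Bcl2l10, an oocyte member of the BCL2 family of cell death regulators, occupies bases 75347758 to 75351649 of chromosome 9. Its level was 2.57 and 3.35 CPM in control, 0.353, 8.52 and 2.01 CPM in Nr5a2 KD, 3.59, 3.54 and 5.71 CPM in Klf5 KD, and 3.91, 3.11, 1.53 and 1.65 CPM in dKD. Both the lowest and the highest library were of Nr5a2 KD, at 3 and 62 counts. Mos, on chromosome 4 from 3870657 to 3872105, encodes the kinase that holds the mature egg in metaphase, and Zar1, on chromosome 5 from 72576806 to 72581254, encodes a protein that binds stored maternal mRNA. Mos had 0 counts in 7 of 12 libraries, both controls included, and 3 to 6 counts in the other 5. Zar1 had 0 counts in 2 libraries and 2 to 13 counts in the others, the highest being Nr5a2 KD replicate 1 at 1.53 CPM. Neither gene passed the filter on low counts in any comparison. Zar1 was at 0 and 0.268 CPM in control (0 and 2 counts), 1.53, 0.412 and 0.376 CPM in Nr5a2 KD, 0, 0.236 and 0.586 CPM in Klf5 KD, and 0.631, 0.283, 0.471 and 1.06 CPM in dKD. All 7 libraries with Nr5a2 siRNA were above both controls, and Klf5 KD overlapped control. The lowest of the 7 held 2 counts, as many as the higher control. Groups did not overlap in the higher direction for 19.9% of all genes tested in Nr5a2 KD and 17% in dKD. The groups of Mos overlapped in all 4 comparisons.

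Each comparison was tested with edgeR's quasi-likelihood test on the libraries of both groups, and calls required an adjusted p (Benjamini-Hochberg over all genes tested) under 0.05 together with a change of 2-fold or more. In each comparison 8 of the 10 genes passed the filter on low counts. The comparisons with control share the same 2 control libraries, and the values are therefore set side by side without a comparison of their agreement.

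In Nr5a2 KD against control, 0 of the 8 tested oocyte genes were called lower and 0 higher, where 4.42% of the 13262 genes tested were called lower and 3.45% higher. DESeq2 also called 0, and 0 of the 8 were lower and 1 (Dppa3) higher at an unadjusted p under 0.05, against 12.1% and 12% of all genes. The log2 change of Dppa3 was 0.71 (standard error 0.227, unadjusted p = 0.00883, adjusted p = 0.0759 by edgeR), a 1.63-fold higher level. Its groups did not overlap, as was the case for 19.9% of all genes tested in the higher direction, and 0 of the 8 did not overlap in the lower direction, against 22.5% of all genes. The other 7 had log2 changes from -0.70 (Oosp1, standard error 0.449) to 0.31 (Btg4, standard error 0.603), with adjusted p from 0.382 to 0.892 by edgeR. With library sizes taken from the ERCC spike-in RNA, under which the median of all genes was 0.816 on the log2 scale, Dppa3 was called at 1.50 (adjusted p = 0.01 by edgeR), as 1 of the 8, where 5.74% of all genes were called higher.

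In Klf5 KD against control, 0 of the 8 were called in either direction by edgeR, and the share over all 12838 genes tested was 0% lower and 0% higher. At an unadjusted p under 0.05, 599 genes (4.67%) were lower and 488 (3.8%) higher, and DESeq2 called 42 lower and 8 higher. Btg4 had a log2 change of -1.78 (standard error 0.392, unadjusted p = 0.000582, adjusted p = 0.227 by edgeR), or 29.1% of control. Btg4 was called under DESeq2 (adjusted p = 0.0434), and the filter on low counts decided its call as well, since without that filter its adjusted p was 0.0257 by edgeR. It was the only one of the 8 with an unadjusted p under 0.05, with Zp3 (-0.67, standard error 0.316, unadjusted p = 0.0534 by edgeR) and Zp2 (-1.60, standard error 0.754, unadjusted p = 0.0545 by edgeR) next. With the replicate number as a block Zp2 (-2.93, adjusted p = 0.00947 by edgeR) and Btg4 (-1.78, adjusted p = 0.0237 by edgeR) were called lower. These were 2 of the 8, against 1.14% of all genes under this block. Control has no replicate 3, so Klf5 KD replicate 3 does not enter the change under the block. Zp2 passed the filter on low counts only through control, where it was higher. With the mitochondrial share as a covariate the change of Zp2 was 0.09. Of the 8, 2 (Zp3 and Btg4) had groups that did not overlap in the lower direction and 1 (Bcl2l10) in the higher, against 14.4% and 12.6% of all genes tested. Dppa3 had a log2 change of 0.18 (standard error 0.201, adjusted p = 0.841 by edgeR). Under the ERCC scaling the median of all genes was 0.656, and Btg4 stayed below 0 at -1.11 while Zp3 was at 0.03.

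In dKD against control, 0 of the 8 were called lower, against 3.85% of 13724 genes tested, and 0 were called higher, against 3.38%. DESeq2 also called 0, while without the filter on low counts edgeR called Btg4 lower, against 2.87% of all genes. The log2 change of Btg4 was -1.16 (standard error 0.504, unadjusted p = 0.0417, adjusted p = 0.18 by edgeR) and that of Dppa3 was 0.44 (standard error 0.169, unadjusted p = 0.0232, adjusted p = 0.13 by edgeR), and these 2 were the genes with an unadjusted p under 0.05, 1 in each direction, against 11.7% of all genes lower and 13.3% higher. Groups did not overlap in the lower direction for Zp3 and Btg4, or 2 of the 8, against 19.3% of all genes. In the higher direction they did not overlap for Dppa3, or 1 of the 8, against 17% of all genes. Zp3 had a log2 change of -0.45 (standard error 0.211, adjusted p = 0.212 by edgeR). For Oosp1 dKD replicate 2 decided the call: the log2 change was -0.39 (adjusted p = 0.796 by edgeR) with that library and -1.69 (adjusted p = 0.0158 by edgeR) without it. Under the ERCC scaling, where the median of all genes was 0.842, Dppa3 was called at 1.23 (adjusted p = 0.0148 by edgeR), as 1 of the 8, where 20.7% of all genes were called higher. Zp3 was at 0.34.

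In dKD against Klf5 KD, which asks what Nr5a2 siRNA adds to Klf5 siRNA, 0 of the 8 were called lower, against 5.41% of 12904 genes tested, and 0 were called higher, against 5.38%. Zp2 had the largest change, a log2 change of 1.90 (standard error 0.67, unadjusted p = 0.0135, adjusted p = 0.0837 by edgeR), a 3.74-fold higher level, and was the only one with an unadjusted p under 0.05, against 13% of all genes lower and 13.6% higher. It was called under DESeq2 (adjusted p = 0.0242), and by edgeR under total counts, ERCC library sizes, no filter on low counts and a replicate block. It was also called without Klf5 KD replicate 3 (log2 change 3.27, adjusted p = 0.00874 by edgeR). Zp2 held 5, 9 and 31 counts in Klf5 KD, so it passed the filter on low counts only through dKD, where it was higher. Its change and calls are given as a description. Groups did not overlap for Dppa3, or 1 of the 8 in the higher direction against 12.3% of all genes, and for 0 of the 8 in the lower direction, against 12.6%. The log2 change of Dppa3 was 0.25 (standard error 0.167, adjusted p = 0.393 by edgeR). Oosp1 was at -0.09 with all libraries and was called lower, at -1.41 (adjusted p = 0.0241 by edgeR), without dKD replicate 2. Whether the effect of Nr5a2 siRNA differed with and without Klf5 siRNA was tested as an interaction over the 12 libraries. Adjusted p was from 0.95 to 0.993 over the 8 by edgeR, with Zp2 at 2.33 on the log2 scale (standard error 0.907, unadjusted p = 0.0203, adjusted p = 0.95).

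**Figure D2:**
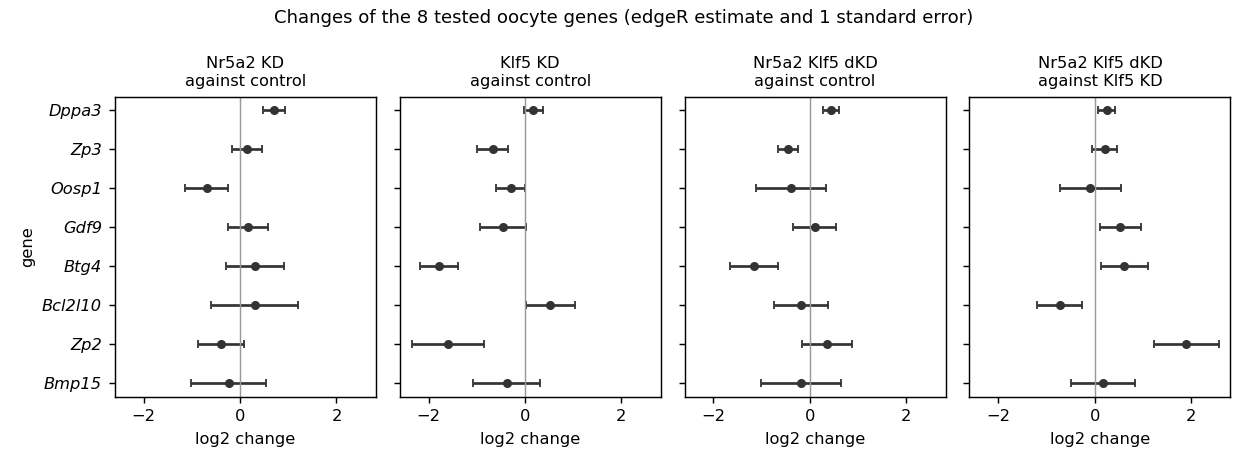
Log2 change of the 8 tested oocyte genes in the 4 comparisons, as the edgeR estimate with bars of 1 standard error. No change was called, and the estimates farthest from 0 are Btg4 in Klf5 KD (-1.78), Zp2 in Klf5 KD (-1.60) and Zp2 in dKD against Klf5 KD (1.90).

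Oosp1 and Btg4 were lowest at small mitochondrial shares in Nr5a2 KD and dKD. In Nr5a2 KD, at shares of 6.18, 10.4 and 12.5%, Btg4 was at 5.64, 10.5 and 36.7 CPM and Oosp1 at 6.01, 19.5 and 26.9 CPM. In dKD the libraries at 6.17 and 6.75% were below those at 12.6 and 12.8% for both genes, while within each of these pairs the library with the larger share was the lower, except for Btg4 in the second pair. In Klf5 KD, at shares of 4.41, 8.28 and 11.8%, Btg4 was at 4.58, 3.42 and 4.40 CPM and Oosp1 at 22.5, 27.8 and 19.3 CPM. The control libraries differed too little in share to show a slope, and whether slopes differed between groups was not tested. The slope of log2 expression on the share was fitted by edgeR over the 12 libraries with a term for group, leaving out mitochondrially encoded genes, and calls required an adjusted p under 0.05. Of the 8 tested, 2 were called with a positive slope, against 5.34% of 14742 genes tested, and 0 with a negative slope, against 9.06%. The slope was 0.24 per percentage point for Oosp1 (standard error 0.074, adjusted p = 0.0391 by edgeR) and 0.20 for Btg4 (standard error 0.0624, adjusted p = 0.0372 by edgeR), or 1.18-fold and 1.15-fold per point. With the replicate number as a block both calls were lost (Oosp1 0.11, adjusted p = 0.275, and Btg4 0.15, adjusted p = 0.159 by edgeR). Without the group term Oosp1 lost its call and Btg4 kept its call. Unadjusted p was under 0.05 for 5 of the 8 with a positive and 1 with a negative slope, against 12.3% and 15.3% of all genes: besides Oosp1 and Btg4, the positive slopes of Gdf9 (0.13, adjusted p = 0.0596 by edgeR), Bmp15 (0.21, adjusted p = 0.14 by edgeR) and Bcl2l10 (0.17, adjusted p = 0.173), and the negative slope of Zp3 (-0.08, adjusted p = 0.099). Gdf9 was called by DESeq2 (adjusted p = 0.0291), and by edgeR with total counts (adjusted p = 0.0436), with mitochondrially encoded genes kept in (adjusted p = 0.0469) and without Klf5 KD replicate 2 (adjusted p = 0.0457). Bmp15 was called without the filter on low counts (adjusted p = 0.0205 by edgeR). Zp2 (0.02) and Dppa3 (-0.03, adjusted p = 0.315 by edgeR) had slopes within 2 standard errors of 0. With ERCC library sizes the median slope of all genes was -0.0924, both calls were lost (Oosp1 0.15, Btg4 0.10), and Zp3 (-0.18, adjusted p = 0.00111 by edgeR) and Dppa3 (-0.12, adjusted p = 6.08e-05 by edgeR) were called with a negative slope, or 2 of the 8, where 32.2% of all genes were.

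Both calls rested on few libraries. The 5 libraries with a share under 9% (Nr5a2 KD replicate 3, Klf5 KD replicates 1 and 2, dKD replicates 3 and 4) had Btg4 at 2.24 to 5.64 CPM and Oosp1 at 6.01 to 27.8 CPM, and the 7 others had Btg4 at 4.40 to 36.7 CPM and Oosp1 at 12.7 to 60.8 CPM. The 3 libraries with Oosp1 under 7 CPM carry the last library numbers in the file headers (241, 242 and 243), and what the numbers stand for is not stated. Without these 3 libraries, a setting chosen after seeing the data, the slope was -0.02 for Oosp1 (adjusted p = 0.938 by edgeR) and 0.05 for Btg4 (adjusted p = 0.873 by edgeR), and 0 of the 8 were called. Both calls were also lost without Nr5a2 KD replicate 2, Nr5a2 KD replicate 3, dKD replicate 2, dKD replicate 3 or dKD replicate 4, each left out alone, with slopes of 0.12 to 0.23 for Oosp1 and 0.14 to 0.22 for Btg4, and Btg4 alone lost its call without dKD replicate 1 (0.19, adjusted p = 0.0737 by edgeR). The ERCC share moved with the mitochondrial share, at 0.204 to 0.247% in the 5 libraries under 9% and 0.285 to 0.459% in the other 7, and its part in the slopes was not tested. Because both control libraries had a share above that of every knockdown library, share and knockdown cannot be fully told apart. With the share as a covariate, the log2 change of Btg4 against control was -1.90 in Klf5 KD, and 0 of the 8 were called in the 4 comparisons.

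**Figure D3:**
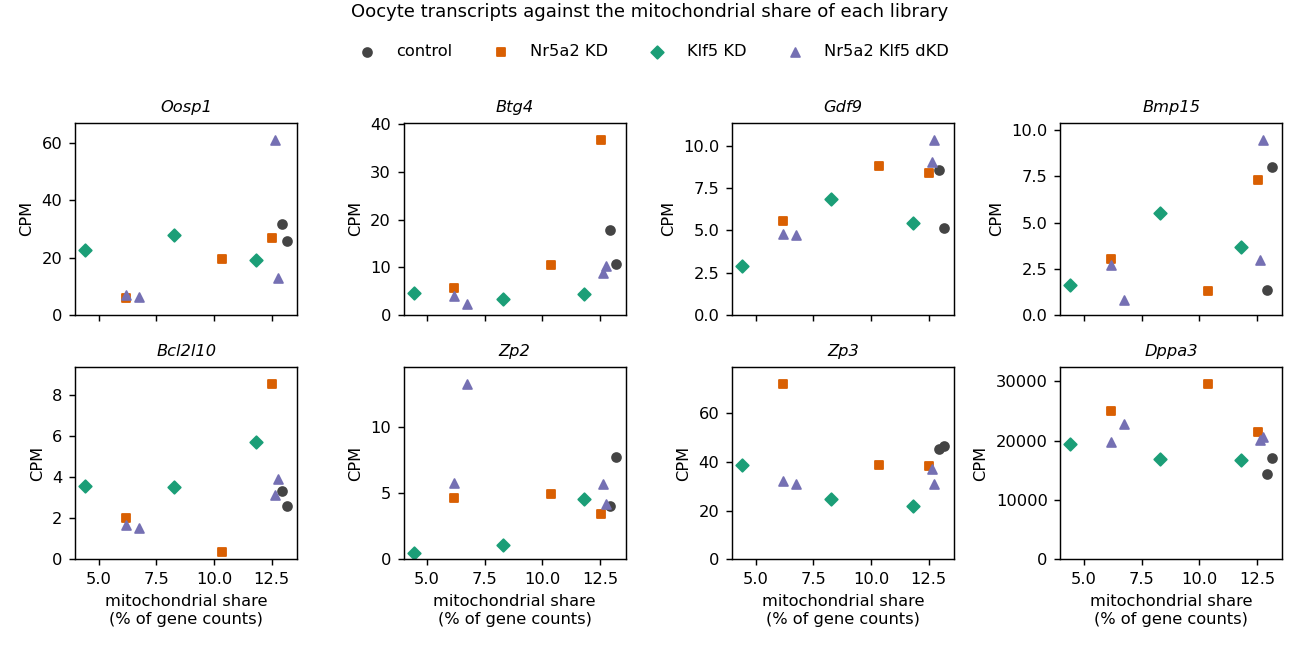
CPM of the 8 tested oocyte genes (vertical axes from 0) against the mitochondrial share of gene counts in each library, coloured by group. Oosp1 and Btg4 are low in Nr5a2 KD replicate 3 and dKD replicates 3 and 4, at shares of 6.17 to 6.75%, while Oosp1 is at 22.5 CPM in the Klf5 KD library with a share of 4.41%.

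A further list of 60 oocyte genes, chosen for their known expression in the oocyte, gave few calls. In Nr5a2 KD, 42 were tested, 1 was called lower and 0 higher, against 4.42% and 3.45% of all genes, with a median log2 change of -0.413 beside 0.0439 over all genes tested. At an unadjusted p under 0.05, 7 were lower and 5 higher, against 12.1% and 12% of all genes. The gene was Zar1l, a relative of Zar1, at 7.64 and 7.90 CPM in control and 2.00, 2.61 and 2.13 CPM in Nr5a2 KD (log2 change -1.75, standard error 0.456, adjusted p = 0.0342 by edgeR). In dKD, 0 of 42 were called (median -0.323 beside 0.0547), with 5 lower and 6 higher at an unadjusted p under 0.05, against 11.7% and 13.3% of all genes. In Klf5 KD, 0 of 45 were called (median -0.467 beside 0.00455), with 7 lower and 3 higher at an unadjusted p under 0.05, against 4.67% and 3.8% of all genes. In dKD against Klf5 KD, 1 of 39 was called higher and 0 lower (median -0.0857 beside 0.0244), against 5.38% and 5.41% of all genes. Of the 39, 5 were higher and 0 lower at an unadjusted p under 0.05, against 13.6% and 13%. The gene called was Rfpl4b, which was at 1.35, 0.707 and 0 CPM in Klf5 KD and at 1.64 to 9.78 CPM in dKD. Rfpl4b passed the filter on low counts only through dKD, where it was higher, and its call is given as a description. With Rfpl4b left aside, 0 of the 39 were called higher.

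On the mitochondrial share, 8 of 47 tested genes of this list were called with a positive slope and 2 with a negative slope, against 5.34% and 9.06% of all genes, with a median slope of 0.11 beside 0.00671 over all genes. The 8 were Tcl1b1 (0.26), Oog3 (0.22), Omt2b (0.21), Nlrp9c (0.19), Omt2a (0.19), Oog1 (0.17), Fbxw15 (0.12) and Spin1 (0.10), the last encoding a chromatin reader of the oocyte, and the 2 were Slbp (-0.18), whose protein binds histone mRNA, and Nlrp4c (-0.16). Of the 8 positive calls, 0 were kept with a replicate block, with ERCC library sizes, without the 3 libraries numbered last or without Nr5a2 KD replicate 3 alone, and 1 was kept without Nr5a2 KD replicate 2 or dKD replicate 2. Without dKD replicate 3 or 4, 2 and 4 were kept, and 4 without the group term. The call of Slbp was kept under each of these settings, whereas Nlrp4c kept its call with ERCC library sizes and lost it under the others. The 5 genes of the list with the highest level per length in control were Omt2b (187 CPM per kb), Omt2a (100.4), Npm2 (42.8), Oog3 (30.0) and Slbp (22.3), of which Omt2b and Omt2a, known from oocyte maturation, and Npm2, which encodes nucleoplasmin of the oocyte, were above Zp3 (34.7 CPM per kb in control). Omt2b was at 208 and 372 CPM in control and at 41.5, 48.3 and 35.1 CPM in Nr5a2 KD replicate 3 and dKD replicates 3 and 4, the same 3 libraries in which Oosp1 was lowest.

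Genes of the machinery that removes maternal mRNA, 34 in all, include the CCR4-NOT and PAN deadenylases, decapping and exonuclease genes, the terminal uridylyl transferases and adaptors of the BTG and TOB families. By level per length in control the highest were Btg1 (125 CPM per kb), Ythdf2 (68.5), Cnot8 (55.1), Cnot7 (47.9) and Cnot9 (28.6), against 5.58 CPM per kb for Btg4. Btg1, a relative of Btg4, was called lower in Nr5a2 KD (log2 change -2.01, standard error 0.304, adjusted p = 0.00234 by edgeR) and in dKD (-1.74, standard error 0.355, adjusted p = 0.0133 by edgeR) and was the only gene of the list called lower in these comparisons. It was at 644 and 677 CPM in control, 119 to 244 CPM with Nr5a2 siRNA alone, 245 to 554 CPM with Klf5 siRNA alone and 109 to 302 CPM with both. Cnot6l, a catalytic subunit of the deadenylase, was called higher in Nr5a2 KD (1.07, adjusted p = 0.0366 by edgeR) and in dKD against Klf5 KD (1.50, adjusted p = 0.0167 by edgeR). Zfp36l1, an AU-rich element binding protein gene, was called higher in Nr5a2 KD at 0.941 to 1.51 CPM, with 0 counts in both controls, so no fold is given. It passed the filter on low counts only through the libraries in which it was high, and its call is given as a description.

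In dKD against Klf5 KD, Tob1 (2.26, adjusted p = 0.00974 by edgeR) and Tob2 (2.06, adjusted p = 0.0195 by edgeR) were called higher as well. Both passed the filter on low counts only through dKD, where they were higher, and their calls are given as a description. With Tob1 and Tob2 left aside, 1 of the 30 tested (Cnot6l) was called higher, against 5.38% of all genes. In the lower direction 0 were called, against 5.41%. In Klf5 KD, 0 of 30 were called, with 3 lower and 0 higher at an unadjusted p under 0.05, against 4.67% and 3.8% of all genes. The median log2 change of the list was 0.0565 in Nr5a2 KD (31 tested, 1 called lower and, with Zfp36l1 left aside, 1 higher, against 4.42% and 3.45% of all genes), 0.117 in dKD (31 tested, 1 lower and 0 higher, against 3.85% and 3.38%), -0.0873 in Klf5 KD and 0.0759 in dKD against Klf5 KD. On the mitochondrial share, Zfp36l2 (0.25), Btg1 (0.17) and Cnot6 (0.10) were called with a positive slope and Cnot8 (-0.18), Btg3 (-0.15), Xrn2 (-0.14) and Cnot2 (-0.12) with a negative slope, or 3 and 4 of 32 tested against 5.34% and 9.06% of all genes. With a replicate block Zfp36l2 lost its call, with ERCC library sizes 0 of the 3 positive and all 4 negative calls were kept, and without the 3 libraries numbered last Cnot6 and Btg1 kept theirs and 0 of the 4 negative calls were kept. Without dKD replicate 3 alone, 1 of the 3 positive calls (Btg1) was kept. Without the group term, 1 of the 3 positive calls (Zfp36l2) and 3 of the 4 negative calls (Cnot2, Xrn2 and Btg3) were kept.

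**Figure D4:**
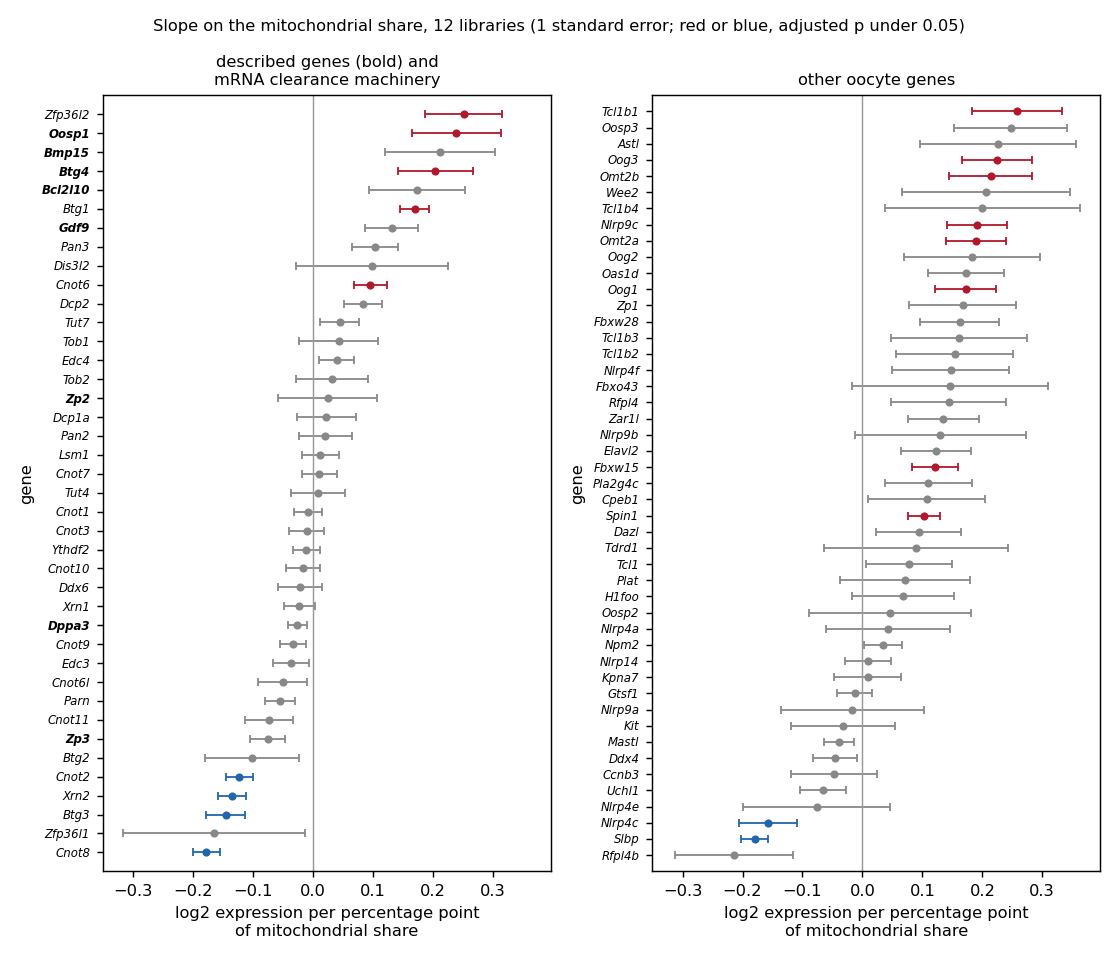
Slope of log2 expression per percentage point of mitochondrial share, with bars of 1 standard error, for the 8 tested oocyte genes (bold) among the mRNA clearance machinery (left) and for 47 other oocyte genes (right). Genes called with a positive slope are red, among them Oosp1 (0.24) and Btg4 (0.20), and genes called with a negative slope are blue.

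Of the 6 tested genes of the subcortical maternal complex, an oocyte protein assembly under the egg's surface, Khdc3 was called lower in Nr5a2 KD (log2 change -2.55), in dKD (-3.24) and in dKD against Klf5 KD (-3.80) by edgeR, and Nlrp5 was called lower in dKD (-1.17), or 1, 2 and 1 of the 6 against 4.42%, 3.85% and 5.41% of all genes.

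The genes whose levels went most closely with the summed CPM of the 10 genes over the 12 libraries, among 14822 genes, were Hspe1 (Pearson's r of log2 CPM 0.923), Gpx1 (0.916), Ndufv2 (0.915), Nbdy (0.904) and S100a11 (0.904). Since Dppa3 makes up nearly all of that sum, these are the genes most like Dppa3. With Dppa3 left out of the sum, a choice made after seeing its share, they were Gm16329 (0.944), Pccb (0.896), Pwwp2b (0.873), Gm10169 (0.872) and Por (0.871). These values describe 12 libraries that share groups and depths and carry no test.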

How the data were processed

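Data processing. RNA-seq counts of 12 libraries were analysed. The authors added ERCC RNA at lysis, made cDNA with a SMART-seq kit without strand or molecular identifiers, trimmed reads (Trim Galore 0.6.2), used STAR for mapping to a GRCm38 genome extended by ERCC and H2B-EGFP, and counted exons with featureCounts 2.0.1. The deposited values are estimated counts, not normalized, in which a read pair over several genes adds a fraction to each. Rounded values were tested. Limits from counts cover counting error only.

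Groups were compared with edgeR 4.0.16 in R 4.3.3 (TMM, filterByExpr at 10 counts per library and 15 in total, glmQLFit, glmQLFTest), with DESeq2 1.42.0 as an alternative, and the edgeR fits were checked on simulated counts. Other settings and the libraries left out in turn are given in the closing section. Names came from GENCODE M21. The members and lists were chosen with earlier results of these data known. The text names the 10 members, the targeted genes, list genes that were called or among the 5 highest per length in control, the 5 genes most like the members' sum, and copies of members. Subcortical maternal complex genes and markers, and list genes in comparisons beyond this rule, were named with their values seen.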

Additional observations from a re-analysis of the deposited data

Results flagged for a closer look

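Oosp1 in dKD had a library apart from the others of its group. Its 4 libraries were at 12.7, 60.8, 6.36 and 6.83 CPM, and the gap between replicate 2 and the next library was 0.883 of the group's range, above Dixon's critical value for groups of that size. This was 1 of 10 groups of 4 libraries examined in this way, and chance gives about 1 in 20. The tests of Oosp1 with and without this library are given with the comparisons above.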

How the results depend on the processing

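Of 360 values of single genes under other settings, 304 kept their direction and side of the threshold, 32 changed sign, 18 passed and 6 lost the threshold. With 1 library left out, 240 of 280 kept both and 25 changed sign. Bmp15, Bcl2l10 and Zp2 fell to 7, 3 and 5 counts in a library, so that depth limits the precision of their values. The cause of the changes was not tested.

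With ERCC library sizes, 1 gene was called higher in Nr5a2 KD and 1 in dKD (Dppa3 in both) and 1 in dKD against Klf5 KD (Zp2), and for the slope 2 were called negative and 0 positive. Zp2 in dKD against Klf5 KD was also called, 1 gene each time, by DESeq2, with total counts, without the filter, at an unadjusted p and without Klf5 KD replicate 3. Btg4 was the 1 gene called lower in Klf5 KD by DESeq2, without the filter and at an unadjusted p, and in dKD without the filter and at an unadjusted p. Leaving out 1 library gave 0 to 1 lower in dKD, 0 to 1 lower and 0 to 1 higher in dKD against Klf5 KD, and 0 to 3 positive slopes. For the slope, an unadjusted p gave 5 positive and 1 negative, no group term 1 positive (Btg4), and leaving out the 3 libraries numbered last 0, with Oosp1 at -0.0246. Gdf9 was called as well by DESeq2, with total counts, with mitochondrially encoded genes kept in and without Klf5 KD replicate 2, and Bmp15 without the filter.

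Replicate numbers were not taken to pair libraries. Deviations of same-numbered libraries from their group means correlated at -0.158 to 0.0473 in the 4 comparisons. Between groups that only the fits over 12 libraries hold together they were at -0.203 to 0.0594 for Nr5a2 KD with Klf5 KD but at 0.13, 0.221 and 0.254 for Nr5a2 KD with dKD, where Nr5a2 KD replicate 3 correlated best with dKD replicate 4 (0.264). With a replicate block, 2 genes were called lower in Klf5 KD (Zp2 and Btg4), against 1.14% of all genes. In dKD against Klf5 KD 1 was called higher (Zp2), against 1.89%. For the slope 0 were called, against 6.22% negative and 3.14% positive. In the 4 comparisons a library whose number the other group lacks does not enter the change under the block. Signs changed for Zp3 (-0.25) and Bcl2l10 (-0.25) in Nr5a2 KD, for Zp2 (-0.19), Bmp15 (0.64), Oosp1 (0.0317) and Bcl2l10 (0.27) in dKD, and for Bmp15 (-0.15) in dKD against Klf5 KD. Under the block Dppa3 had an adjusted p of 0.00573 in Nr5a2 KD and 0.000835 in dKD by edgeR, with changes of 0.69 and 0.40 below the fold minimum.

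With the mitochondrial share as a covariate, signs changed in Nr5a2 KD for Zp3 (-0.46), Bmp15 (0.28) and Oosp1 (0.20), in dKD for Zp2 (-0.25), Bmp15 (0.56), Oosp1 (0.50) and Bcl2l10 (0.32), in Klf5 KD for Zp2 (0.0917), Gdf9 (0.0697), Bmp15 (0.39) and Dppa3 (-0.0088), and in dKD against Klf5 KD for Bmp15 (-0.35). With ERCC library sizes they changed in Nr5a2 KD for Zp2 (0.38) and Bmp15 (0.37), in dKD for Zp3 (0.34), Bmp15 (0.47), Oosp1 (0.20) and Bcl2l10 (0.54), in Klf5 KD for Zp3 (0.0335), Gdf9 (0.21), Bmp15 (0.23) and Oosp1 (0.41), and in the slope for Zp2 (-0.078), all smaller in size than the shift of the median of all genes in those comparisons. With total counts Oosp1 was at 0.10 in dKD against Klf5 KD.

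With 1 library left out, signs changed in Nr5a2 KD for Zp2 (-0.79 to 0.13), Zp3 (-0.23 to 0.32), Gdf9 (-0.17 to 0.58), Bmp15 (-1.07 to 1.52), Bcl2l10 (-1.29 to 0.85) and Btg4 (-0.80 to 0.74). They changed in dKD for Zp2 (-0.14 to 0.89), Gdf9 (-0.22 to 0.52), Bmp15 (-1.06 to 1.59) and Bcl2l10 (-0.47 to 0.024), in Klf5 KD for Bmp15 (-1.15 to 1.42), in dKD against Klf5 KD for Bmp15 (-0.71 to 0.62) and Oosp1 (-1.41 to 0.22), and in the slope for Zp2 (-0.0931 to 0.0937). Where this left 1 control library, it was taken to vary like the other group.

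Counts over all genes, lower then higher, that moved by over 1.5 times in either direction, or whose share of higher calls moved by over 10 percentage points, were as follows. In Nr5a2 KD 586 and 457 became 90 and 761 with ERCC library sizes, 751 and 707 without the filter, 373 and 282 with the share as a covariate, 982 and 1038 at an unadjusted p with the fold minimum kept (as in the other group comparisons here), and 206 and 114 or 184 and 120 without control replicate 1 or 2. In dKD 529 and 464 became 418 and 650 with total counts, 178 and 2838 with ERCC library sizes, 645 and 707 by DESeq2, 792 and 795 without the filter, 943 and 1183 at an unadjusted p, 91 and 41 or 104 and 67 without control replicate 1 or 2, and 401 and 274 without dKD replicate 4. In Klf5 KD 0 and 0 became 42 and 8 by DESeq2, 4 and 21 with ERCC library sizes, 69 and 45 without the filter, 6 and 0 with all 12 libraries in one fit, 146 and 107 with the block, 385 and 257 at an unadjusted p, and up to 15 and 1 (without Klf5 KD replicate 3) with 1 library left out. In dKD against Klf5 KD 698 and 694 became 486 and 1064 with total counts, 350 and 589 with ERCC library sizes, 288 and 244 with the block, 966 and 1178 at an unadjusted p, and 506 and 405 without Klf5 KD replicate 2. For the slope 1335 negative and 787 positive became 989 and 1101 with total counts, 4750 and 36 with ERCC library sizes, 917 and 463 with the block, 873 and 328 without the group term, 2254 and 1816 at an unadjusted p, 985 to 1375 and 474 to 871 with 1 library left out, and 291 and 105 without the 3 libraries numbered last.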
